A study of Homo sapiens with 24 samples.

Results

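The late part of the response to IK-595 was described by setting tumors taken 48 h after the last dose against tumors taken 24 h after it, 4 tumors in each group and 8 of the 24 tumors sequenced. The tumors were grown in mice from AsPC-1, an established human line of pancreatic ductal adenocarcinoma. IK-595, which the labels call a MEK/RAF molecular glue, was given by mouth in 3 doses of 6 mg/kg on alternate days, so both groups had the same drug and dosing and differed in the time since the last dose. The remaining tumors, also 4 per group, were taken 2, 4 and 8 h after IK-595 and 2 h after vehicle. They enter here as background levels and in the shared estimate of spread. AsPC-1 is a single line, and blood vessels, fibroblasts and immune cells of such tumors come from the mouse.

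RAF and MEK are successive kinases of the MAPK pathway, which carries growth signals from RAS to ERK. Active ERK drives transcription of immediate early genes and of its own inhibitors, among them dual-specificity phosphatases and Sprouty proteins, so their mRNAs are commonly read as a measure of pathway output. In pancreatic cancer cells this pathway also sustains glucose uptake and glycolysis. The comparison asks what changed during the second day after dosing.

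Levels are in CPM, each gene's counts relative to the scaled library size. Changes are log2 fold changes of 48 h over 24 h ± standard error, from edgeR's quasi-likelihood test with n = 4 tumors per group. The words rose and fell are kept for genes with an adjusted p under 0.05 (Benjamini-Hochberg over all genes tested). Values of 4 tumors are given in the order of tumors 1 to 4.

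Depth was 18.45 to 20.64 M counts in 48 h tumors and 13.87 to 20.26 M in 24 h tumors. Of the 24 h tumors, 2 stood apart. In tumor 1, mRNAs encoded by the mitochondrial genome took 26.99% of counts, against 10.32 to 12.46% in the other 24 h tumors and 9.865 to 11.11% in 48 h tumors. In tumor 4, 15 markers of muscle, fat and red cells summed to 4524 CPM, against 271 to 355 CPM in the other 24 h tumors and 249 to 387 CPM in 48 h tumors. The mean log2 CPM of these markers was 1.63, 1.38, 1.71 and 5.62 in 24 h tumors. In 48 h tumors it was 0.11 to 1.26, so by this measure the groups did not overlap. Markers of the tumor cells were high throughout: KRT8, a keratin of simple epithelia, was at 4690 to 6253 CPM at 48 h and at 2856 to 5247 CPM at 24 h. The lists that lead the account are therefore also counted without these tumors.

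**Figure D1:**
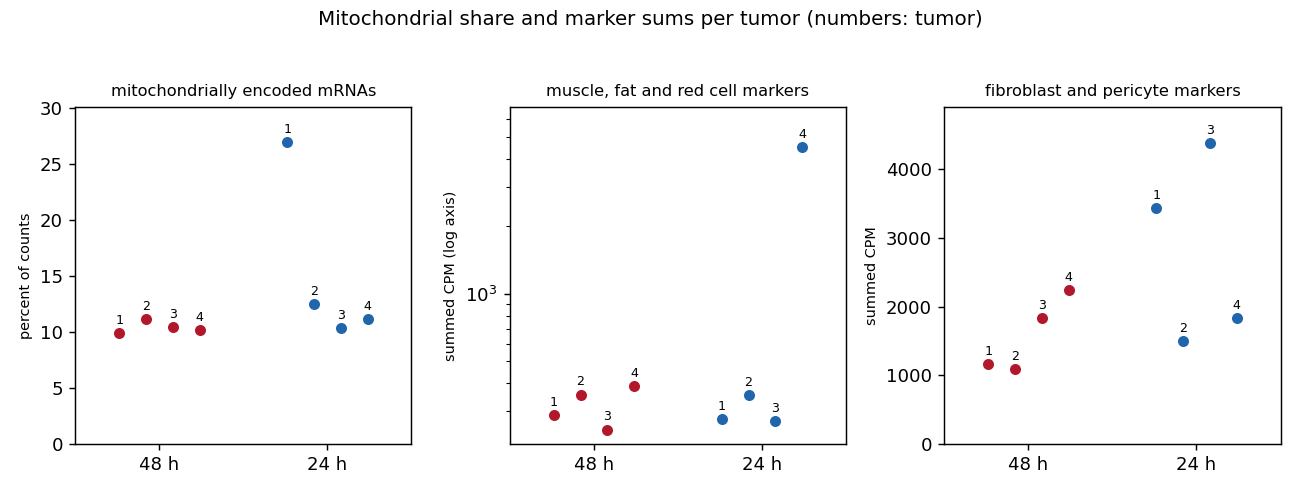
Share of counts from mitochondrially encoded mRNAs (percent), summed CPM of muscle, fat and red cell markers (log axis) and summed CPM of fibroblast and pericyte markers, 1 point per tumor with its number, at 48 h (red) and 24 h (blue) after the last IK-595 dose. At 24 h, tumor 1 stands apart in the first panel at 26.99% and tumor 4 in the middle panel at 4524 CPM.

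Of 18242 genes tested, 451 rose at 48 h (2.47%) and 291 fell (1.60%), together 4.07%. Of these, 100 rose and 147 fell by 2-fold or more. Among all genes tested, 10.9% had no overlap between the 4 and 4 tumors, and among called genes 409 that rose and 254 that fell had none. Fold changes were above 0 in 46.3% of genes. The median gene had a standard error of 0.23 on its log2 fold change. Without 24 h tumor 1, 214 rose and 159 fell. Without 24 h tumor 4 the counts were 208 and 141, and without both of these tumors 40 and 42. Leaving out both also leaves fewer 24 h tumors to detect a change. Other tumors moved the counts as well. They were 178 and 120 without 48 h tumor 3, 268 and 156 without 48 h tumor 1, 294 and 179 without 48 h tumor 2, and 750 and 612 without 24 h tumor 3. With upper-quartile scaling in place of TMM, 308 rose and 389 fell. A set of 133 genes that rose and 81 that fell kept their calls in each of the 8 fits that left out 1 tumor. Genes said below to rise or fall with no remark on a lost call belong to that set.

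Transcripts that read out MAPK signaling were higher at 48 h than at 24 h. The mean log2 CPM of 10 such genes was 6.31, 5.96, 6.29 and 6.03 in 48 h tumors and 5.38, 5.43, 5.90 and 5.54 in 24 h tumors. Every 48 h tumor lay above every 24 h tumor, with means of 6.15 ± 0.18 and 5.56 ± 0.23 (SD, n = 4 each) and a difference of 0.58 (SE 0.15) on the log2 scale. The vehicle tumors lay between 6.48 and 6.56. Of the 10 genes, 9 had a fold change above 0, and 3 rose (30% against 2.47% of all genes).

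DUSP6, the ERK phosphatase that ERK itself induces, was at 246, 228, 297 and 226 CPM at 48 h and at 100, 83.8, 120 and 120 CPM at 24 h, a change of 1.23 ± 0.31 (adjusted p = 0.0255). PHLDA1, a pleckstrin-domain protein induced by growth factors, was at 134, 107, 214 and 120 CPM at 48 h and at 61.0, 65.0, 98.4 and 56.8 CPM at 24 h (1.03 ± 0.22, adjusted p = 0.00928). The ephrin receptor EPHA2 was at 300, 266, 456 and 324 CPM at 48 h and at 191, 119, 207 and 151 CPM at 24 h (1.01 ± 0.26, adjusted p = 0.0302). None of the 3 genes overlapped between groups, but each call depended on single tumors. PHLDA1 was lost without 48 h tumor 3 (adjusted p = 0.0545). DUSP6 was lost without any one of 48 h tumors 1 and 3 and 24 h tumors 1, 2 and 4 (adjusted p up to 0.0825), and EPHA2 without any one of 48 h tumors 3 and 4 and 24 h tumors 1, 2 and 4 (up to 0.111). The list had 0 calls without 48 h tumor 3 and 2 without 48 h tumor 1 or 4. It had 1 without any one of 24 h tumors 1, 2 and 4, and 4 without 24 h tumor 3. Without both 24 h tumors 1 and 4 it had 0, and the difference in mean log2 CPM was 0.482. DESeq2 called 4 higher, limma-voom 4, limma on log2(TPM + 1) 2, and edgeR on only the 8 tumors compared 1.

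The other 7 output genes did not pass. DUSP4, a nuclear phosphatase of ERK, came nearest, with 195, 128, 244 and 132 CPM at 48 h and 75.9, 77.8, 124 and 85.9 CPM at 24 h (0.94 ± 0.29, adjusted p = 0.0725). Cyclin D1 (CCND1), which drives entry into the cell cycle, was at 233 to 296 CPM at 48 h and 162 to 265 CPM at 24 h, a difference within the spread (0.33 ± 0.23, adjusted p = 0.426). The Sprouty inhibitors SPRY2 (0.36 ± 0.20) and SPRY4 (0.49 ± 0.29) and the ETS factor ETV5 (0.28 ± 0.29) had positive values short of the threshold. ETV4, another ETS factor, was at 38.9 to 55.7 CPM at 48 h and 42.9 to 54.7 CPM at 24 h (-0.09 ± 0.18). EPHA4 was near the detection limit, at 1.0 to 4.04 CPM at 48 h and 0.552 to 2.62 CPM at 24 h (0.30 ± 0.72), and its sign turned without 48 h tumor 1 (-0.34).

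**Figure D2:**
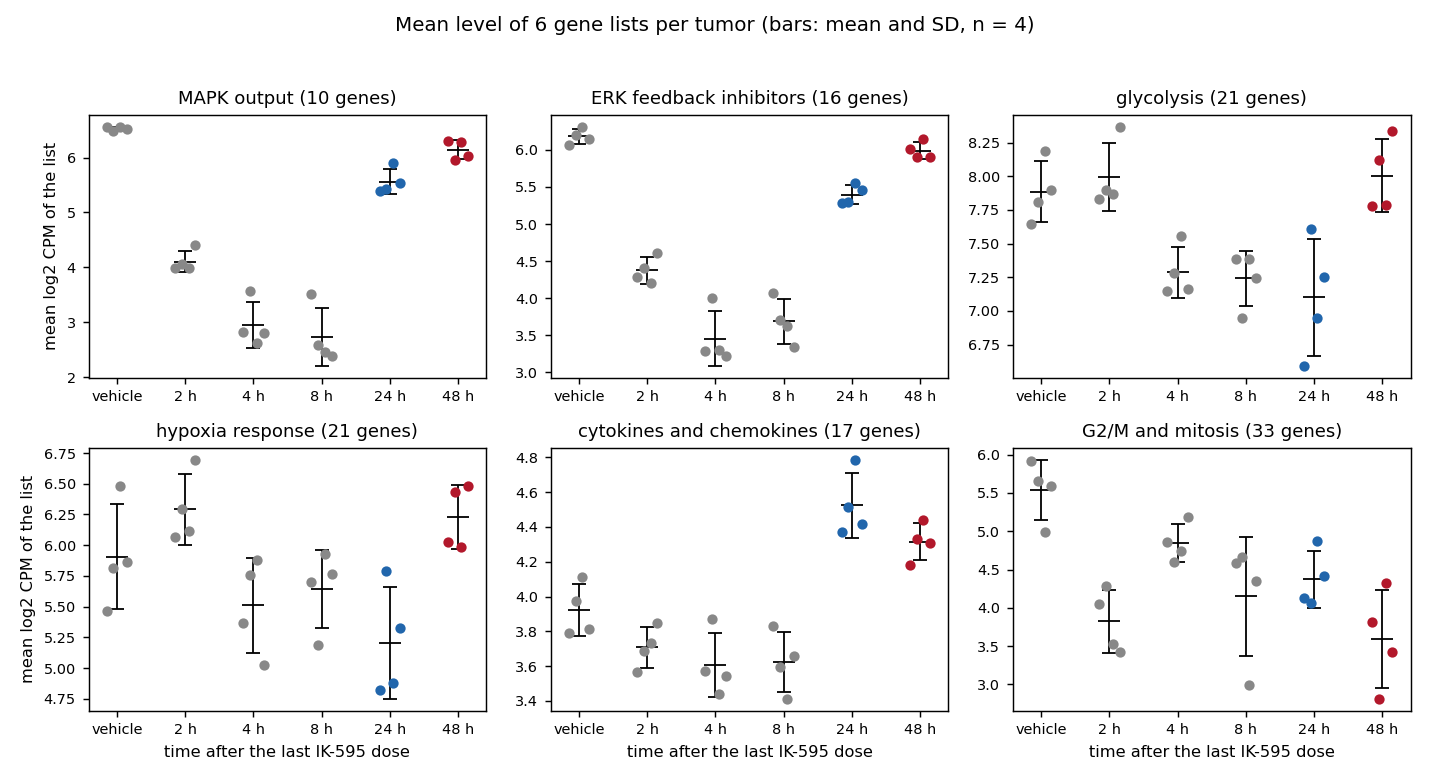
Mean log2 CPM of 6 gene lists in each tumor (points) with the group mean and SD (bars, n = 4), for vehicle and for 2, 4, 8, 24 and 48 h after the last IK-595 dose. For MAPK output, ERK feedback, glycolysis and hypoxia the 4 tumors at 48 h (red) lie above the 4 at 24 h (blue).

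The wider list of ERK feedback inhibitors, which shares DUSP4, DUSP6, PHLDA1, SPRY2 and SPRY4 with the output genes, had 5 of 16 tested genes that rose in edgeR (31.2% against 2.47%), with a median of 0.48 against -0.04 over all genes. None fell in edgeR, where 1 was lower at an unadjusted p under 0.05, and DESeq2 and limma-voom each called 1 lower. ERRFI1, a cytosolic inhibitor of the EGF receptor, changed most. It was at 279, 323, 333 and 324 CPM at 48 h and at 73.9, 103, 83.4 and 105 CPM at 24 h, so that the lowest 48 h tumor exceeded the highest 24 h tumor by a wide margin (1.79 ± 0.32, adjusted p = 0.00381). DUSP7, a cytoplasmic ERK phosphatase, was at 112 to 152 CPM at 48 h and 46.5 to 91.4 CPM at 24 h (0.98 ± 0.23, adjusted p = 0.0174). Its call was lost without any one of 48 h tumor 3 and 24 h tumors 1, 2 and 4 (up to 0.0731). LGALS3, a galectin, rose by 0.48 ± 0.12 (adjusted p = 0.0268) and was lost without any one of 48 h tumors 1, 2 and 4 and 24 h tumors 1 and 2 (up to 0.0681). The list had 2 calls without 24 h tumor 1, 3 without 24 h tumor 4 and 0 without both. DESeq2 called 8 higher, limma-voom 6, limma on log2(TPM + 1) 4, and edgeR on only the 8 tumors compared 2.

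Of 29 immediate early genes, 27 had a fold change above 0, with a median of 0.35. Of the 29, 3 rose (10.3% against 2.47% of all genes) and none fell. The 3 were TRIB1, a pseudokinase (0.67 ± 0.17, adjusted p = 0.0243), the AP-1 subunit JUNB (0.65 ± 0.18, adjusted p = 0.0477) and IER2 (0.55 ± 0.16, adjusted p = 0.0493). All 3 calls were lost without 24 h tumor 1 and without 24 h tumor 4, among other tumors, with an adjusted p of up to 0.1 for TRIB1, 0.16 for JUNB and 0.138 for IER2. The zinc-finger factor EGR1, a classical ERK target, was at 31.1, 17.0, 33.1 and 17.4 CPM at 48 h and at 11.4, 4.76, 15.5 and 8.67 CPM at 24 h, without overlap but short of the threshold (1.29 ± 0.46, adjusted p = 0.115). FOSL1, an AP-1 subunit downstream of ERK, also missed it (1.21 ± 0.43, adjusted p = 0.117), as did MYC (0.45 ± 0.25, adjusted p = 0.313). The RAS-RAF-MEK-ERK chain itself had 22 of 24 genes above 0 and none that passed in edgeR, 9 at an unadjusted p under 0.05, 2 in DESeq2 and 0 in limma-voom.

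Glycolysis was the list with the largest share of calls: 11 of 21 genes rose (52.4% against 2.47% of all genes) and none fell. The median was 0.85, and 20 of 21 genes were above 0. The mean log2 CPM of the list was 7.78, 8.12, 7.79 and 8.33 in 48 h tumors and 6.59, 7.61, 6.95 and 7.25 in 24 h tumors. The groups did not overlap, with a difference of 0.90 (SE 0.26), and 24 h tumor 1 had the lowest value. Vehicle tumors ranged from 7.65 to 8.19. The count was 9 without 24 h tumor 1, 9 without 24 h tumor 4 and 2 without both. In all, 8 genes kept their calls whichever single tumor was left out. DESeq2 called 14 higher, limma-voom 12, limma on log2(TPM + 1) 7, and edgeR on only the 8 tumors compared 3.

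The genes that rose ran from glucose entry to lactate export. SLC2A1, the glucose transporter GLUT1 (chromosome 1, 42925375 to 42959176, minus strand, GRCh38), was at 1222, 1485, 1378 and 1493 CPM at 48 h and at 226, 534, 379 and 323 CPM at 24 h. Its lowest 48 h value was above every 24 h value, a change of 1.93 ± 0.31 (adjusted p = 0.00136). PFKP, an isoform of phosphofructokinase, the committed step of glycolysis, was at 441, 469, 491 and 507 CPM at 48 h and at 169, 325, 249 and 230 CPM at 24 h (0.97 ± 0.17, adjusted p = 0.00192).

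The payoff-phase enzyme ENO1, an enolase, was at 1139, 1056, 1211 and 1347 CPM at 48 h and at 537, 680, 806 and 575 CPM at 24 h (0.87 ± 0.13, adjusted p = 0.000791). LDHA, which turns pyruvate into lactate, was at 3735, 3659, 3340 and 3518 CPM at 48 h and at 873, 2021, 1814 and 1778 CPM at 24 h (1.14 ± 0.19, adjusted p = 0.00165). The lactate exporter SLC16A3 was at 187 to 272 CPM at 48 h and 80.1 to 130 CPM at 24 h (1.09 ± 0.21, adjusted p = 0.00475). None of these genes overlapped between the groups, and in LDHA the lowest 24 h value was that of tumor 1.

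Other enzymes of the middle and lower pathway rose by less. Pyruvate kinase PKM rose by 0.85 ± 0.16 (adjusted p = 0.00399), the aldolase ALDOA by 0.84 ± 0.18 (adjusted p = 0.0121) and triosephosphate isomerase TPI1 by 0.80 ± 0.16 (adjusted p = 0.00562). GAPDH rose by 0.59 ± 0.13 (adjusted p = 0.0135) and was just lost without 48 h tumor 4 (adjusted p = 0.0503). ENSG00000285043, a gene model without a symbol that overlaps ALDOA on the same strand of chromosome 16 (30053090 to 30070420), was at 70.2 to 82.3 CPM at 48 h and 13.9 to 32.8 CPM at 24 h (1.82 ± 0.22, adjusted p = 0.000158). Reads of the overlap can be split between the models, so both values are uncertain.

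PGK1, the first ATP-forming enzyme of the pathway, was at 1226, 1505, 936 and 1680 CPM at 48 h and at 179, 889, 574 and 456 CPM at 24 h (1.35 ± 0.33, adjusted p = 0.0246). The lowest 48 h tumor was only just above the highest 24 h tumor, and the call was lost without any one of 48 h tumors 2 and 4 and 24 h tumors 1 and 4 (up to 0.0775). PFKL, the liver-type phosphofructokinase, rose by 0.63 ± 0.18 (adjusted p = 0.0465), which was lost without any one of 48 h tumors 2, 3 and 4 and 24 h tumors 1, 3 and 4 (up to 0.124). PGAM1, a phosphoglycerate mutase, was the most expressed member that did not pass (0.80 ± 0.24, adjusted p = 0.0592).

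**Figure D3:**
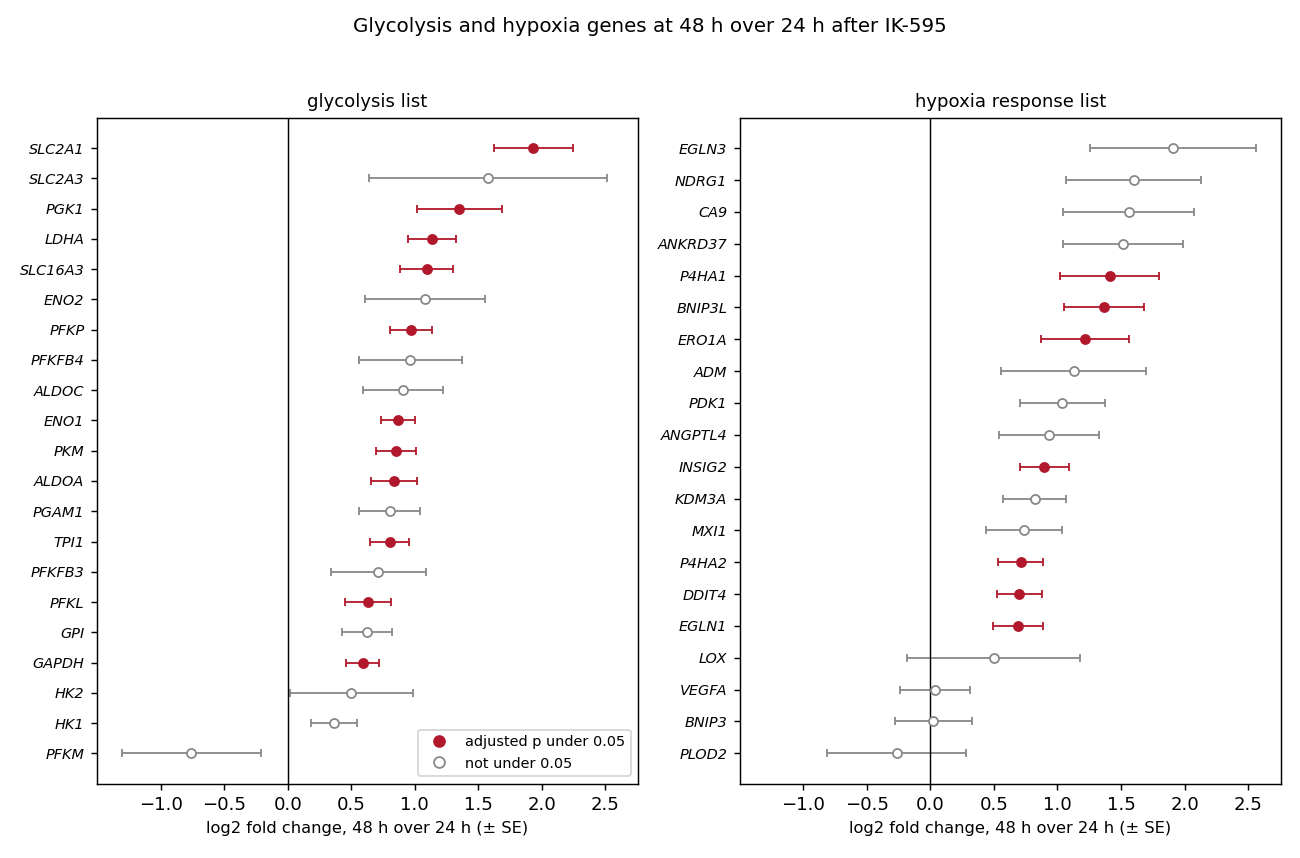
Log2 fold change at 48 h over 24 h ± SE (x axis) of tested genes of the glycolysis list (left, 21 genes) and the hypoxia response list (right, 20 of 21 genes, with 1 that passed not reported here). Filled red points passed an adjusted p of 0.05 in edgeR, 11 on the left and 7 on the right, and 20 of 21 points on the left and 19 of 20 on the right lie above 0.

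Hypoxia response genes, many of them targets of the HIF factors, had 8 of 21 members that rose (38.1%) and none that fell. The median was 0.93, and 2.47% of all genes rose. DESeq2 called 14 members higher, limma-voom 13, limma on log2(TPM + 1) 0, and edgeR on only the 8 tumors compared 1. The main edgeR count moved with single tumors of both groups. It was 4 without 48 h tumor 1 or 3, 3 without 48 h tumor 2 or 4, 1 without 24 h tumor 1, 3 without 24 h tumor 4, 6 without 24 h tumor 3, 0 without both and 13 without 24 h tumor 2. The mean log2 CPM was 6.03, 6.43, 5.98 and 6.48 in 48 h tumors and 4.82, 5.79, 4.87 and 5.33 in 24 h tumors, without overlap (difference 1.03, SE 0.26). Vehicle tumors ranged from 5.46 to 6.48. The list of 21 shares no gene with the glycolysis list.

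INSIG2, a sterol-sensing protein of the endoplasmic reticulum, was the member whose call held in each of the 8 fits without 1 tumor. It was at 45.0, 50.2, 44.9 and 56.0 CPM at 48 h and at 18.0, 37.1, 24.3 and 25.7 CPM at 24 h (0.90 ± 0.19, adjusted p = 0.0102). BNIP3L, a mitophagy receptor, was at 224 to 340 CPM at 48 h and 64.7 to 174 CPM at 24 h (1.37 ± 0.32, adjusted p = 0.0174), and was lost without 24 h tumor 1 (adjusted p = 0.0666). The collagen prolyl hydroxylase subunits P4HA1 (1.41 ± 0.39, adjusted p = 0.0439) and P4HA2 (0.71 ± 0.18, adjusted p = 0.0246) rose. P4HA1 overlapped between groups, at 201, 265, 147 and 253 CPM at 48 h and at 41.2, 155, 48.9 and 79.8 CPM at 24 h. Its call held only without 24 h tumor 2 (adjusted p otherwise up to 0.144), and P4HA2 was lost without any one of 48 h tumors 2 and 4 and 24 h tumor 1 (up to 0.0898).

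Others were DDIT4, an inhibitor of mTORC1 (0.70 ± 0.18, adjusted p = 0.0258), the oxidoreductase ERO1A (1.22 ± 0.35, adjusted p = 0.0496) and the HIF hydroxylase EGLN1 (0.69 ± 0.20, adjusted p = 0.0465). These 3 calls were lost without 24 h tumor 1 and without 24 h tumor 4, among other tumors, with an adjusted p of up to 0.0649 for DDIT4, 0.163 for ERO1A and 0.115 for EGLN1. NDRG1, a stress-response gene, had a larger fold change that did not pass, at 758, 1217, 798 and 977 CPM at 48 h and 191, 632, 136 and 279 CPM at 24 h (1.60 ± 0.53, adjusted p = 0.0919). Carbonic anhydrase CA9, a widely used hypoxia marker, was at 52.1 to 148 CPM at 48 h and 8.11 to 59.3 CPM at 24 h (1.56 ± 0.52, adjusted p = 0.0927). In NDRG1 the 24 h tumors themselves spread widely, with tumors 1 and 3 lowest.

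Promoter sequence is shown for 3 genes of these lists that rose and for SLC2A1, because HIF and E-box factors read short cores in such promoters. The 250 bases before the start are given 5′ to 3′ on the gene's strand from RefSeq on GRCh38.p14, with each ACGTG or GCGTG core, on either strand, in capitals.
PGK1, chrX:78103998-78104247, plus strand: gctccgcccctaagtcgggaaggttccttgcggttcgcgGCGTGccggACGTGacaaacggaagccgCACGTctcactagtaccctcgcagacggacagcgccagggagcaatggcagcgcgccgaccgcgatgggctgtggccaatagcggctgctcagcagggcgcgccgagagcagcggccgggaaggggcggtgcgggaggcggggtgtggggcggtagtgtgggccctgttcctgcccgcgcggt
ENO1, chr1:8878687-8878936, minus strand: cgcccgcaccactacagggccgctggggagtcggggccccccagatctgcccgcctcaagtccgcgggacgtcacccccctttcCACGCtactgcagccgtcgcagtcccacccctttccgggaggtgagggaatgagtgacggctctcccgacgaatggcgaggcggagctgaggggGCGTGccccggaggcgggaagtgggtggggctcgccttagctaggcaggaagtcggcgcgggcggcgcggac
P4HA1, chr10:73096867-73097116, minus strand: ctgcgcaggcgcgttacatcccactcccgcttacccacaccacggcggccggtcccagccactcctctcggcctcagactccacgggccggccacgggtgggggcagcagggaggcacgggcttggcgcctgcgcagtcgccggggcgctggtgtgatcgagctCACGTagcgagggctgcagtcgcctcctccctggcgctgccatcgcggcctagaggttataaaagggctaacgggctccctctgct
SLC2A1, chr1:42958869-42959118, minus strand: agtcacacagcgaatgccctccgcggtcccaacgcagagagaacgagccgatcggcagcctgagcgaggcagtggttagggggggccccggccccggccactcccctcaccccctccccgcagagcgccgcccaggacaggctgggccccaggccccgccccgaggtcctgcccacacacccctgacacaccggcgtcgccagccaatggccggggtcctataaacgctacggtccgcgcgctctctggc

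PGK1 held 3 cores, ENO1 2 and P4HA1 1, while SLC2A1, the gene of the glycolysis list with the largest change, held 0 in this window. A core was present in 15 of 22 windows of the glycolysis genes that rose (68.2%) and in 6 of 7 windows of the hypoxia genes that rose (85.7%, with 6 of 8 genes matched). The share was 52.4% for all genes that rose, 51.2% for those that fell, 53.2% for all genes tested and 43.2% for all windows in the table. The AP-1 motif TGANTCA, the site of FOS and JUN dimers, was in 7.94% of windows of genes that rose, 4.10% of those that fell and 4.77% of those tested. It was in 6.57% of all windows in the table, and in 0 of the 22 glycolysis and 0 of the 7 hypoxia windows. Shares count windows and not genes: 351 of the 451 genes that rose were matched, with 617 windows. These are matches of letters and say nothing of binding.

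Of 21 receptor kinases and adaptors outside the EGFR family 2 rose (9.52% against 2.47% of all genes). Of 8 EGFR family genes 1 rose (12.5%). The receptor kinase AXL was at 162, 150, 193 and 144 CPM at 48 h and at 43.7, 91.3, 47.0 and 72.1 CPM at 24 h, without overlap (1.35 ± 0.21, adjusted p = 0.000791). MET, the receptor of hepatocyte growth factor, was at 340 to 654 CPM at 48 h and 177 to 399 CPM at 24 h (0.86 ± 0.23, adjusted p = 0.0306). EGFR was at 308 to 526 CPM at 48 h and 153 to 322 CPM at 24 h (0.88 ± 0.21, adjusted p = 0.0200). MET and EGFR overlapped by 1 tumor of the 48 h group. Their calls were lost without any one of 48 h tumors 1 and 3 and 24 h tumor 1, and MET's also without 24 h tumor 2 or 4 (up to 0.125 for MET and 0.0678 for EGFR).

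Of 24 genes of epithelial and mesenchymal state, 4 rose (16.7% against 2.47% of all genes), 3 without 24 h tumor 1, 3 without 24 h tumor 4 and 1 without both. One was SNAI2, a zinc-finger repressor of epithelial genes, at 36.8, 36.5, 40.2 and 37.6 CPM at 48 h and at 9.86, 11.2, 12.3 and 14.4 CPM at 24 h (1.66 ± 0.24, adjusted p = 0.000582). Laminin genes of the epithelial basement membrane were among the others. LAMB3 was at 725, 775, 803 and 847 CPM at 48 h and at 244, 465, 396 and 405 CPM at 24 h (1.06 ± 0.21, adjusted p = 0.00614). LAMA3 rose by 0.86 ± 0.21 (adjusted p = 0.0226) and was lost without any one of 48 h tumors 1 and 3 and 24 h tumors 1 and 4 (up to 0.109). The intermediate filament VIM, at 1244 to 1650 CPM at 48 h and 1085 to 1165 CPM at 24 h, did not pass (0.44 ± 0.15, adjusted p = 0.0884).

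Among 24 matrix protease and invasion genes, 5 rose (20.8%) and 1 fell (4.17%), with a median of 0.66. The shares over all genes were 2.47% and 1.60%. The count of rises was 3 without 24 h tumor 1, 3 without 24 h tumor 4 and 1 without both. PLAUR, the receptor of urokinase, was at 118, 123, 126 and 138 CPM at 48 h and at 47.9, 62.6, 81.9 and 68.6 CPM at 24 h (0.95 ± 0.15, adjusted p = 0.000791). ITGB4, the integrin subunit of hemidesmosomes, was at 1178 to 1914 CPM at 48 h and 797 to 875 CPM at 24 h (0.86 ± 0.16, adjusted p = 0.00470). The membrane protease ADAM8 rose by 0.83 ± 0.19 (adjusted p = 0.0174). The collagen receptor subunit ITGA2 rose by 1.38 ± 0.35 (adjusted p = 0.0281) but was lost without any one of 48 h tumors 1 and 3 and 24 h tumors 1, 2 and 4 (up to 0.0967). MMP7, a secreted matrix protease, fell to 104 to 255 CPM at 48 h, against 218 to 477 CPM at 24 h (-1.10 ± 0.30, adjusted p = 0.0436). Its call held only without 48 h tumor 3 or 24 h tumor 1 (up to 0.127).

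YAP-TEAD targets had 3 of 22 genes that rose (13.6%) and 1 that fell (4.55%), or 2 and 0 without 24 h tumors 1 and 4. Of all genes, 2.47% rose and 1.60% fell. Tissue factor F3, the cell-surface starter of coagulation, was at 604, 621, 762 and 836 CPM at 48 h and at 279, 334, 286 and 273 CPM at 24 h (1.27 ± 0.17, adjusted p = 0.000412). All 4 values at 48 h were well above the 24 h range. Besides AXL, the membrane-repair protein MYOF rose by 0.55 ± 0.15 (adjusted p = 0.0349), lost without any one of 48 h tumors 1, 2 and 3 and 24 h tumors 1 and 4 (up to 0.128). The kinase gene NUAK2 fell (-0.97 ± 0.23, adjusted p = 0.0215), lost without any one of 48 h tumors 2, 3 and 4 and 24 h tumors 2 and 4 (up to 0.0721).

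**Figure D4:**
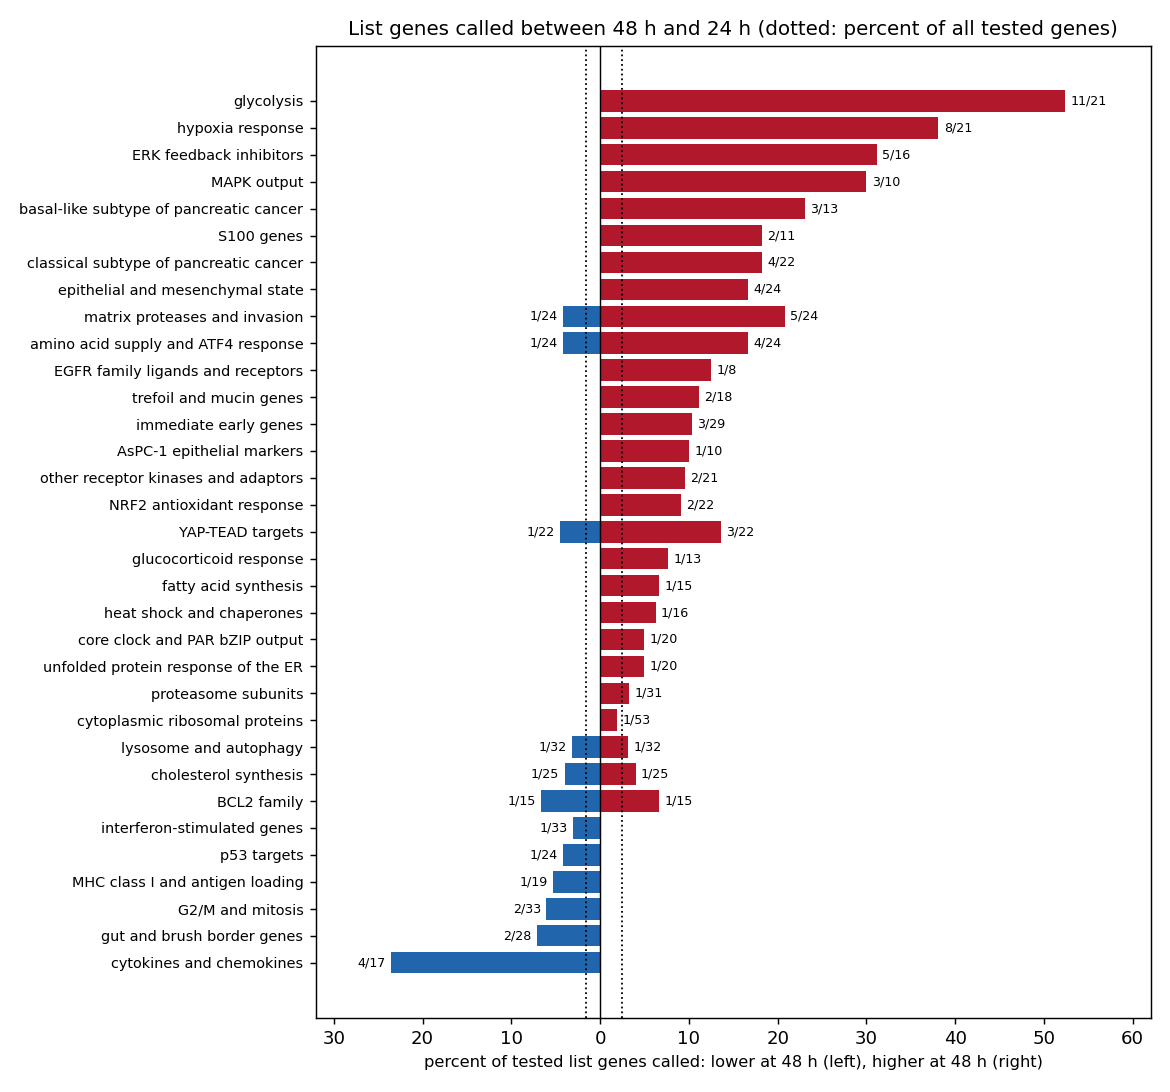
Percent of tested genes of each list that rose (red, right) or fell (blue, left) at 48 h against 24 h, with the counts beside the bars, for lists with at least 1 call. Dotted lines mark 2.47% and 1.60%, the shares of all tested genes that rose and fell; glycolysis reaches 11 of 21 to the right and cytokines and chemokines 4 of 17 to the left.

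The largest rises with no overlap and a mean log2 CPM of at least 3 included secreted proteins of the gastric and pancreatic epithelium. TFF1, a trefoil peptide of mucus, was at 74.2, 91.7, 40 and 156 CPM at 48 h and at 10.6, 20.9, 7.98 and 20.2 CPM at 24 h. Levels varied widely among 48 h tumors, yet none reached the 24 h range (2.59 ± 0.50, adjusted p = 0.00680). TFF2, a second trefoil peptide, was at 817, 1340, 491 and 1470 CPM at 48 h and at 136, 394, 80.9 and 286 CPM at 24 h (2.20 ± 0.53, adjusted p = 0.0240), lost without any one of 48 h tumors 2 and 4 and 24 h tumor 1 (up to 0.0869). The lectin REG4 was at 25.7, 36.8, 38.8 and 109 CPM at 48 h and at 6.23, 6.97, 15.3 and 16.7 CPM at 24 h (2.21 ± 0.53, adjusted p = 0.0225). Its call was lost without any one of 48 h tumor 4 and 24 h tumors 1 and 2 (up to 0.0800).

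TFF1, TFF2, REG4 and the adhesion protein CEACAM6 (0.90 ± 0.21, adjusted p = 0.0199, lost without any one of 48 h tumors 3 and 4 and 24 h tumor 4, up to 0.0726) were the 4 of 22 genes of the classical subtype of pancreatic cancer that rose. That is 18.2% against 2.47% of all genes, with 2 calls without 24 h tumor 1, 3 without 24 h tumor 4 and 0 without both. Of 13 tested genes of the basal-like subtype 3 rose (23.1%), with 1 call without both of these tumors. FAM83A, a scaffold protein that binds RAF kinases, was at 340, 391, 484 and 626 CPM at 48 h and at 83.4, 118, 92.1 and 87.3 CPM at 24 h (2.27 ± 0.34, adjusted p = 0.000791). An antisense gene overlaps FAM83A, and whether the counting used strand is not stated, so reads of the pair cannot be told apart. The calcium-binding protein S100A2 rose by 1.17 ± 0.25 (adjusted p = 0.0116) at under 11 CPM. The focal adhesion protein TNS4 rose by 1.43 ± 0.38 (adjusted p = 0.0355) and was lost without any one of 48 h tumors 1 and 3 and 24 h tumors 2, 3 and 4 (up to 0.114).

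Outside the lists, AKAP12, a scaffold of protein kinase A, was at 318, 217, 419 and 126 CPM at 48 h and at 38.4, 55.4, 77.2 and 48.0 CPM at 24 h (2.30 ± 0.38, adjusted p = 0.00189). HAS3, a hyaluronan synthase, was at 20.2, 25.0, 28 and 31.1 CPM at 48 h and at 6.86, 6.01, 6.51 and 5.42 CPM at 24 h (2.07 ± 0.41, adjusted p = 0.00699). IGFBP1, a binding protein of insulin-like growth factors, was at 418, 260, 411 and 213 CPM at 48 h and at 28.9, 144, 69.1 and 112 CPM at 24 h (1.88 ± 0.45, adjusted p = 0.0223). IGFBP1 was lost without any one of 48 h tumors 1 and 3 and 24 h tumor 1 (up to 0.0657). S100A14, an epithelial calcium-binding protein, was at 118, 149, 118 and 164 CPM at 48 h and at 53.4, 46.7, 64.6 and 55.7 CPM at 24 h (1.32 ± 0.19, adjusted p = 0.000602). With S100A2 it made 2 of 11 S100 genes that rose (18.2% against 2.47% of all genes).

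**Figure D5:**
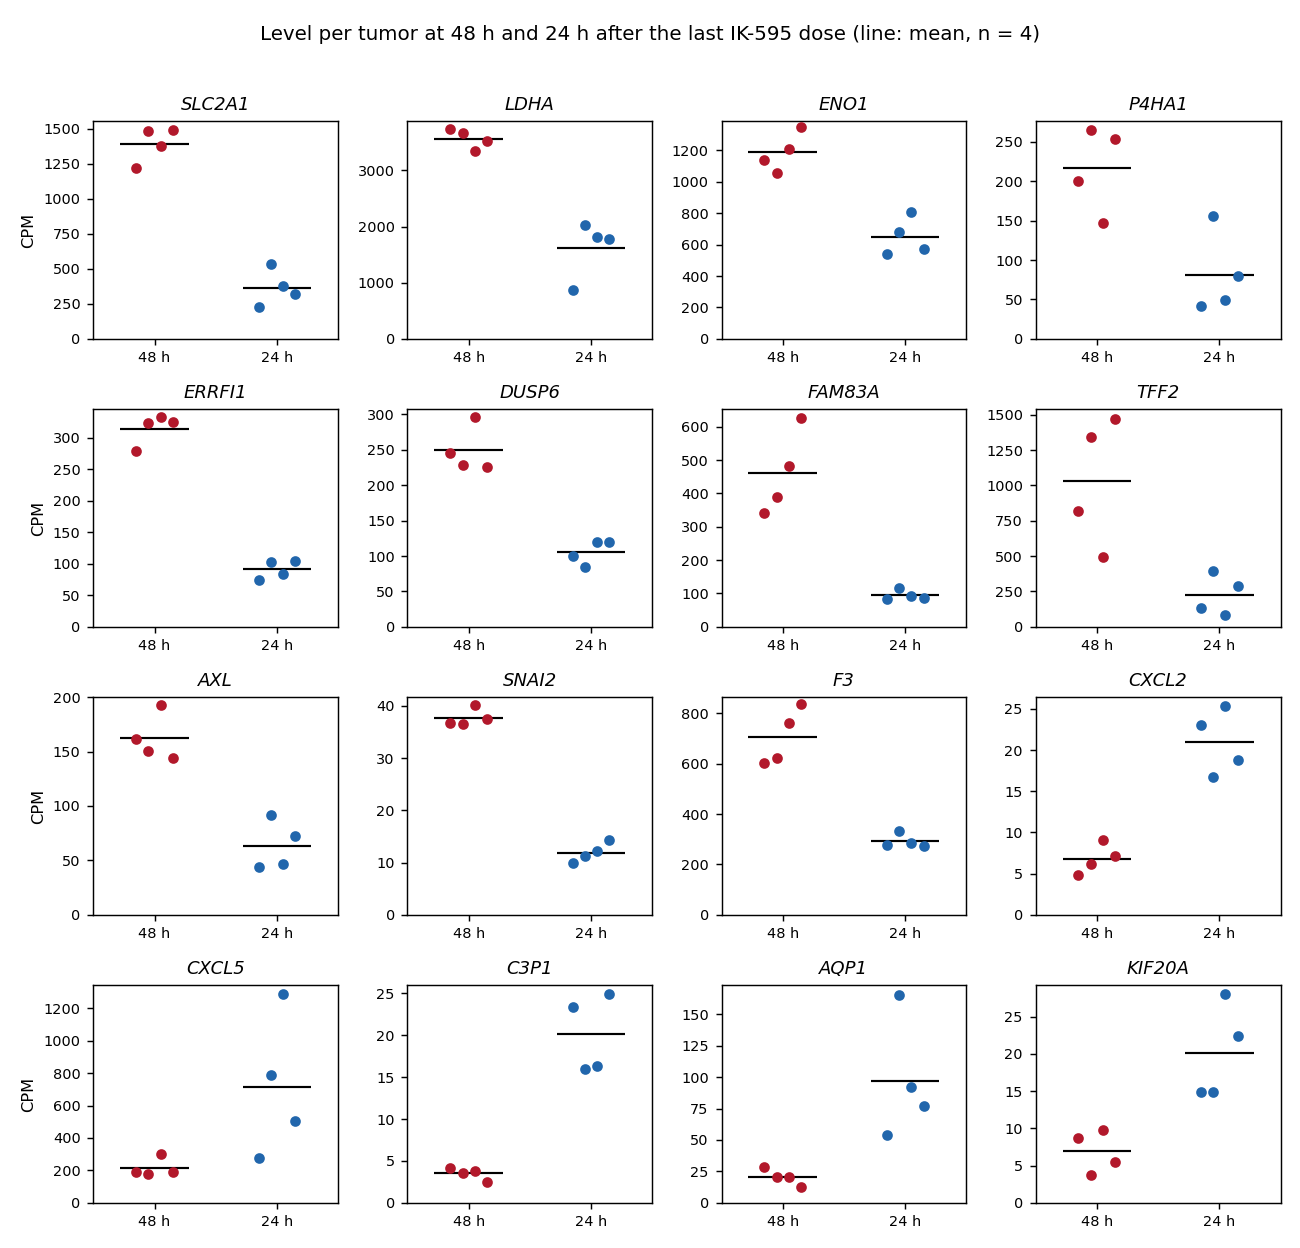
CPM of 16 genes in each tumor at 48 h (red, left) and 24 h (blue, right) after the last IK-595 dose, with the group mean (line, n = 4) and the axis starting at 0. In 14 genes no 48 h tumor overlaps the 24 h range; P4HA1 and CXCL5 overlap.

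Of the genes that fell, the most extreme were of low to moderate level. C3P1, a pseudogene of the complement family, was at 4.14, 3.61, 3.84 and 2.50 CPM at 48 h and at 23.4, 15.9, 16.3 and 24.9 CPM at 24 h (-2.51 ± 0.33, adjusted p = 0.000238). As a pseudogene it may share reads with related genes. COL28A1, a minor collagen, was at 12.2, 11.2, 14.6 and 8.30 CPM at 48 h and at 34.3, 51.3, 50.1 and 47.2 CPM at 24 h (-1.98 ± 0.23, adjusted p = 0.000109). Vehicle tumors averaged 2.06 CPM for C3P1 and 12.5 CPM for COL28A1, close to the 48 h values of the collagen.

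The water channel AQP1 was at 28.7, 20.7, 20.5 and 12.7 CPM at 48 h and at 54.0, 166, 91.8 and 77.1 CPM at 24 h (-2.23 ± 0.42, adjusted p = 0.00519). AQP7, a channel for water and glycerol known from fat, was at 12.7, 19.7, 4.84 and 14.9 CPM at 48 h and at 36.4, 47.0, 33.8 and 48.4 CPM at 24 h (-1.67 ± 0.29, adjusted p = 0.00287). Endothelium and red cells also express AQP1. The summed level of 9 endothelial markers was 32.2 to 51.9 CPM at 48 h and 31.5 to 85.9 CPM at 24 h, and its part in the AQP1 result was not tested. In AQP7 all 4 tumors at 48 h lay below all 4 at 24 h.

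Other falls of this rank were in SLC38A11, an amino acid transporter gene (-1.97 ± 0.39, adjusted p = 0.00680), PBLD (-1.69 ± 0.26, adjusted p = 0.000791), SNPH, which anchors mitochondria in axons (-1.56 ± 0.34, adjusted p = 0.0121), and CNTNAP1, a cell adhesion protein of nerve (-1.54 ± 0.25, adjusted p = 0.00134). Their mean levels at 48 h were all under 11 CPM.

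Cytokines and chemokines were the list with the largest share of falls, 4 of 17 (23.5% against 1.60% of all genes) in edgeR, where none rose. DESeq2 and limma-voom each called 2 members higher, with 6 lower in DESeq2 and 4 in limma-voom. With limma on log2(TPM + 1), 1 was higher and 2 were lower. With edgeR on only the 8 tumors compared, 2 were higher and 2 lower. The median was -0.24 and the fold changes were split, 8 above 0 and 9 below, so the negative changes were not general to the list. CXCL2, a chemokine that attracts neutrophils, was at 4.84, 6.17, 9.06 and 7.10 CPM at 48 h and at 23.1, 16.7, 25.4 and 18.8 CPM at 24 h (-1.63 ± 0.25, adjusted p = 0.000791). CXCL3, also on chromosome 4, was at 9.27, 13.7, 15.5 and 16.3 CPM at 48 h and at 39.9, 36.8, 47.0 and 32.7 CPM at 24 h (-1.52 ± 0.22, adjusted p = 0.000582). CXCL2 and CXCL3 are close in sequence, so that reads may be split between them.

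CXCL5, of the same cluster, was the most expressed of the 4, at 193, 178, 301 and 192 CPM at 48 h and at 274, 787, 1287 and 506 CPM at 24 h (-1.72 ± 0.35, adjusted p = 0.00781). One 48 h tumor overlapped the lowest 24 h tumor. IL18, an interleukin activated by inflammasomes, was at 149, 134, 137 and 128 CPM at 48 h and at 264, 190, 198 and 237 CPM at 24 h (-0.70 ± 0.15, adjusted p = 0.00947). All 4 calls held in each of the 8 fits without 1 tumor, and the list had 3 falls without both 24 h tumors that stood apart. Mean levels in vehicle tumors were 5.43 CPM for CXCL2, 8.41 CPM for CXCL3, 154 CPM for CXCL5 and 120 CPM for IL18.

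Genes of G2 and mitosis were lower at 48 h in every member: 0 of 33 had a fold change above 0, with a median of -0.68, yet only 2 fell (6.06% against 1.60% of all genes), and 0 did so without both 24 h tumors 1 and 4. The mean log2 CPM was 3.81, 2.81, 4.32 and 3.42 in 48 h tumors and 4.13, 4.07, 4.88 and 4.42 in 24 h tumors, with overlap and a wide spread at 48 h (difference -0.78, SE 0.37). KIF20A, a kinesin of cytokinesis, was at 8.72, 3.72, 9.73 and 5.51 CPM at 48 h and at 14.9, 14.9, 28 and 22.5 CPM at 24 h (-1.53 ± 0.33, adjusted p = 0.0120). PTTG1, the securin that guards chromatid separation, was at 6.38 to 12.2 CPM at 48 h and 18.8 to 30.6 CPM at 24 h (-1.35 ± 0.31, adjusted p = 0.0164, 0.0563 without 48 h tumor 2). The proliferation marker MKI67 was at 73.0, 33.4, 119 and 40.5 CPM at 48 h and at 97.4, 83.7, 151 and 102 CPM at 24 h (-0.71 ± 0.39, adjusted p = 0.317). In bulk tumor RNA, fewer cells of a kind and less RNA per cell cannot be told apart. In G1/S and DNA replication 20 of 34 genes were above 0 and none passed in edgeR, DESeq2 or limma-voom, with 2 at an unadjusted p under 0.05.

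In the BCL2 family of apoptosis regulators 1 of 15 genes rose and 1 fell (6.67% each, against 2.47% and 1.60% of all genes). BCL2L1, whose main product BCL-XL protects cells from death, was at 290, 248, 314 and 295 CPM at 48 h and at 111, 146, 241 and 185 CPM at 24 h (0.75 ± 0.17, adjusted p = 0.0129, 0.0557 without 48 h tumor 3). BMF, a BH3-only activator of death, was at 2.24, 3.56, 2.06 and 3.24 CPM at 48 h and at 6.31, 9.91, 4.09 and 7.98 CPM at 24 h (-1.35 ± 0.34, adjusted p = 0.0244). The BMF call was lost without any one of 48 h tumors 1 and 3 and 24 h tumors 2 and 4 (up to 0.0853).

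Of 24 genes of amino acid supply and the ATF4 response, 4 rose (16.7%) and 1 fell (4.17%), against 2.47% and 1.60% of all genes. The counts were 2 rises without 24 h tumor 1 and 1 without 24 h tumor 4, with 0 falls in each, and 0 of either without both. SLC7A11, the cystine transporter, was at 75.1, 58.5, 86.7 and 63.7 CPM at 48 h and at 27.0, 29.1, 43.1 and 32.7 CPM at 24 h (1.11 ± 0.23, adjusted p = 0.00911). TRIB3, a pseudokinase induced by ATF4, rose by 1.23 ± 0.28 (adjusted p = 0.0158), lost without 48 h tumor 3 or 24 h tumor 4 (up to 0.0674). The neutral amino acid transporter SLC38A2 rose by 0.63 ± 0.16 (adjusted p = 0.0320) and PCK2, a mitochondrial enzyme of gluconeogenesis, fell by 0.46 ± 0.13 (adjusted p = 0.0444). Each of these 2 calls was lost without 24 h tumor 1, among other tumors (up to 0.12 for SLC38A2 and 0.159 for PCK2). DDIT4, named above, was the fourth that rose.

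Lists of lipid synthesis, stress and protein turnover held few calls in edgeR. For comparison, 2.47% of all genes rose and 1.60% fell. In the cholesterol list 19 of 25 genes were above 0, 1 rose and 1 fell. TM7SF2, a sterol reductase, fell by 0.72 ± 0.19 (adjusted p = 0.0358), a call lost without 24 h tumor 1, among other tumors (up to 0.145). ELOVL1, an elongase of long fatty acids, was the single rise in 15 fatty acid genes (0.93 ± 0.15, adjusted p = 0.00152), and HSPH1, a co-chaperone of HSP70, the single rise in 16 chaperone genes (0.82 ± 0.15, adjusted p = 0.00441). Of 53 cytoplasmic ribosomal protein genes 50 were above 0 with a median of 0.20, and 1 passed in edgeR, RPL3 (0.51 ± 0.11, adjusted p = 0.0120, 0.0502 without 24 h tumor 4). In this list 17 genes were higher at an unadjusted p under 0.05, and DESeq2 called 9 higher and limma-voom 3. Of 28 gut and brush border genes 2 fell (7.14%). Among them was PRAP1, at 17.6, 19.9, 26.2 and 26.6 CPM at 48 h and 66.4, 37.8, 71.6 and 54.4 CPM at 24 h (-1.35 ± 0.25, adjusted p = 0.00380). At most 2 genes rose and 1 fell in edgeR in each of the NRF2, ER stress, lysosome, interferon, MHC class I, proteasome, p53, clock and glucocorticoid lists. DESeq2 called at most 3 higher (NRF2) and 2 lower (MHC class I) in any of them. Without 24 h tumor 3, edgeR called 4 higher in the NRF2 list and 4 in the ER stress list. Without 24 h tumor 1 it called 3 lower in the lysosome list. None passed in edgeR in the lists of G1 cyclins and CDK inhibitors (24 genes), ribosome biogenesis (30), aminoacyl-tRNA synthetases (20), keratins (10) and the nuclear-encoded respiratory chain (36). At an unadjusted p under 0.05 these lists had 5, 4, 4, 2 and 0 genes, DESeq2 called 1, 1, 0, 1 and 0, and limma-voom called 0 in each.

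The 13 mitochondrially encoded mRNAs were all lower at 48 h, with a median of -0.47, and none passed in edgeR, DESeq2 or limma-voom, with 4 at an unadjusted p under 0.05. They took 10.4 ± 0.53% of counts at 48 h and 15.2 ± 7.89% at 24 h (SD, n = 4 each). The difference of -4.84 percentage points did not pass an exact two-sided permutation test (p = 0.114, where 70 assignments allow 0.0286 at the lowest). Without 24 h tumor 1 it was -0.917 points, so the size of the difference rested on that tumor.

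Markers of mouse-derived cell types were checked as lists. None passed in edgeR among 18 fibroblast and pericyte, 9 endothelial, 8 myeloid, and 15 muscle, fat and red cell genes, and the 12 lymphocyte markers all fell below the expression filter. At an unadjusted p under 0.05 the 4 lists had 0, 1, 2 and 10 genes. DESeq2 called 10 muscle, fat and red cell genes lower at 48 h and none of the other lists, and limma-voom called none. Summed fibroblast markers were 1082 to 2237 CPM at 48 h and 1497 to 4381 CPM at 24 h, and 16 of 18 were lower at 48 h. Summed myeloid markers were 428 to 674 CPM at 48 h and 241 to 731 CPM at 24 h. Of 10 AsPC-1 epithelial markers 9 were above 0 and 1 rose. Their mean log2 CPM was 9.34 ± 0.32 at 48 h and 8.78 ± 0.25 at 24 h (SD, n = 4 each), without overlap, and their part in the other rises was not tested.

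To ask where the second day differed from the hours before it, the change between 24 h and 48 h was set against that between 8 h and 24 h in one test. The step differed in 123 genes, more positive in 28 (0.153% of genes) and more negative in 95 (0.521%). Both steps share the 24 h tumors, so a high or low 24 h group moves them in opposite directions. The steps also differ in length, so the test compares total changes and not rates. A negative value means that a gene rose less, or fell more, between 24 h and 48 h than between 8 h and 24 h. Among the 10 MAPK output genes 6 were more negative: CCND1 (-2.44), DUSP4 (-2.80), DUSP6 (-2.64), ETV4 (-2.94), SPRY4 (-3.94) and ETV5 (-3.31), each with an adjusted p of at most 0.0138. SPRY4, for example, averaged 4.22 CPM at 8 h, 92.3 CPM at 24 h and 129 CPM at 48 h.

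Of the cytokine list 7 genes had a more negative step, including IL18 (-1.79, adjusted p = 0.000651), CXCL5 (-3.40, adjusted p = 0.00401), CXCL2 (-2.29, adjusted p = 0.00650) and CXCL3 (-1.99, adjusted p = 0.00683), which were higher at 24 h than at either 8 h or 48 h. Of the 21 glycolysis genes 2 had a more positive step, ENO1 (1.10, adjusted p = 0.0264) and GAPDH (1.15, adjusted p = 0.0171), and none a more negative one. ENO1 averaged 761 CPM at 8 h, 650 CPM at 24 h and 1188 CPM at 48 h. AXL (1.76, adjusted p = 0.0234), FAM83A (2.68, adjusted p = 0.0372) and S100A14 (1.46, adjusted p = 0.0420) also had a more positive step. For AXL the means were 84.5 CPM at 8 h, 63.5 CPM at 24 h and 162 CPM at 48 h.

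Against the vehicle tumors, which were taken at 2 h alone, 1821 genes were called at 48 h (9.98%) and 5011 at 24 h (27.5%). The 2 counts use the same vehicle tumors. SLC2A1 was 0.57 above vehicle at 48 h and 1.37 below it at 24 h on the log2 scale, ERRFI1 0.04 below at 48 h and 1.83 below at 24 h, and LDHA 0.21 above at 48 h and 0.92 below at 24 h. None of these 3 genes passed against vehicle at 48 h, with an adjusted p of 0.273 for SLC2A1, 0.963 for ERRFI1 and 0.551 for LDHA, and all 3 passed at 24 h. For COL28A1 the values were 0.11 below at 48 h and 1.87 above at 24 h. SLC2A1, ERRFI1, LDHA and COL28A1 were named for their change between 48 h and 24 h in these same tumors. A larger difference from vehicle at 24 h than at 48 h is therefore partly built in by that choice. Other genes named above passed against vehicle at 48 h. S100A14 was 1.41 above vehicle (adjusted p = 0.000114), F3 0.80 above (adjusted p = 0.00408) and PHLDA1 0.97 below (adjusted p = 0.00481).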

How the data were processed

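Bulk RNA sequencing covered 24 xenografts of AsPC-1 cells, from 6 groups of 4 mice. Per the submitters' processing notes the tools were bcl2fastq 2.17, FastQC 0.12.1 and Salmon 0.14.1 with GRCh38.p13. The authors deposited estimated counts per gene, of which 59.6% of values above 0 were whole within 0.0015; they were rounded to whole numbers here. The authors also deposited TPM per gene, used as an alternative. Whether mouse reads were removed and whether counting used strand is not given in the sources used here. Groups were read from titles, because the labelled time field of treated tumors refers to vehicle dosing.

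Of 60230 genes, 18242 passed edgeR's expression filter, which kept 99.9% of counts. edgeR 4.0.16 (R 4.3.3) fitted a robust quasi-likelihood model with TMM scaling to all 24 tumors, with the 48 h over 24 h contrast and Benjamini-Hochberg adjustment over all genes. limma 3.58.1 and DESeq2 1.42.0 served as alternatives. Log2 CPM used a prior count of 2. Depth was 10.52 to 20.64 M counts. Because the fit took in all 24 tumors, p-values rest on the spread between tumors within groups, pooled over the 6 groups of 4. Within the 48 h group and within the 24 h group, no pair of tumors agreed within sampling noise (lowest chi-square per degree of freedom 14.5). Other pairs were not checked.

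Members and 46 gene lists (976 genes, 901 tested) were chosen with earlier results of these data known, so the lists are descriptions. The rule for named genes took the 10 largest changes in each direction among called genes without overlap and with a mean log2 CPM of at least 3, with the 10 MAPK output genes, the 4 smallest adjusted p of each list with at least 2 calls and the most expressed member of each list that did not pass. Further list members printed were added after their values were seen. Some genes counted in the lists are not reported here by name. Symbols were matched by ID for 60089 genes. On simulated data, edgeR recovered 17.9% of genes changed 1.5-fold, 65.7% changed 2-fold and 90.9% changed 4-fold. Of its 119 calls, over 17710 genes, 2.52% were false. The simulation drew each gene independently and held no tumor that stood apart, so these rates may not hold for the real tumors.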

Additional observations from a re-analysis of the deposited data

Results flagged for a closer look

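A tumor was listed here where its gap to the nearest other tumor took up an unusually large part of its group's range. Of 154 groups of values checked, 10 met this. A chance rate of 1 in 20 would give about 7.7, so the number of flags was near that of chance. Of the 10, 2 were at 48 h and 8 at 24 h.

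At 48 h, tumor 4 was highest in REG4, at 108.7 CPM, with the gap at 0.842 of the range. Tumor 1 was highest in EPHA4, at 4.038 CPM, with a gap of 0.843.

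At 24 h, tumor 1 accounted for 5 of the 8. Its share of mitochondrially encoded mRNAs was 26.99% (gap 0.872). It was lowest in the mean log2 CPM of 4 lists: G1 cyclins, CDK inhibitors and quiescence at 4.59 (gap 0.905), lysosome and autophagy at 5.726 (gap 0.939), interferon-stimulated genes at 5.071 (gap 0.94), and MHC class I and antigen loading at 6.226 (gap 0.852). Tumor 3 was highest in epithelial and mesenchymal state at 5.666 (gap 0.839) and lowest in CNTNAP1 at 9.767 CPM (gap 0.886). Tumor 4 was highest in muscle, fat and red cell markers at 5.62 (gap 0.921).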

How the results depend on the processing

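The edgeR test gave 451 genes that rose, 291 that fell and 123 with a different step. Those 3 counts were 946, 584 and 375 with DESeq2, 119, 91 and 39 with limma on log2(TPM + 1), 101, 80 and 33 on log2(TPM + 0.1), 109, 65 and 42 at an adjusted p under 0.01, and 119, 103 and 72 with the fold tested against 1.2. Fitting only the 8 tumors compared gave 77 rises and 71 falls, from fewer samples. No filter on low counts left 149 falls. Leaving out each tumor in turn gave 178 to 750 rises, 120 to 612 falls and 59 to 156 steps, and leaving out both 24 h tumors 1 and 4, chosen after seeing the data, 40 rises and 42 falls. RLE size factors, upper-quartile scaling, limma-voom, a stricter filter and removal of mitochondrial genes kept all 3 counts within 1.5 times. The MAPK output score difference of 0.58 ran from 0.524 to 0.6955 over the fits without 1 tumor, and was 0.482 without both 24 h tumors 1 and 4. The mitochondrial share difference ran from -6.476 to -0.9171 points, with an exact permutation p of 0.0286, the smallest possible, at -6.476 points without 24 h tumor 3. The gene EPHA4 turned to -0.34 without 48 h tumor 1 and to -0.06347 without 24 h tumors 1 and 4 (0.6447 at most, without 24 h tumor 3); the cause was not tested. Over 128 named genes, 2172 of 2813 results kept their direction and side of the threshold, 614 lost a call, 25 gained one and 2 reversed. Replicate numbers name tumors and were not used as pairs. Between 48 h and 24 h tumors of equal number, correlations were mixed (-0.166, 0.357, 0.325 and 0.0105 for numbers 1 to 4). Over 60 pairs of equal number across all groups the mean was -0.0131, with 20 above 0.1. A replicate block gave 401 rises, 245 falls and 119 steps. In the self-test 17.9% of 1.5-fold changes were found, so smaller changes may be missed at this depth and n.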

Other observations

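A few genes of the actin cytoskeleton and its membrane anchors were among those that rose and kept their calls in all 8 fits without 1 tumor. They were chosen after their values were seen and from no fixed list, so they say nothing of actin genes as a group. FSCN1, which bundles actin filaments, was at 249, 200, 331 and 243 CPM at 48 h and at 120, 104, 147 and 101 CPM at 24 h (1.12 ± 0.17, adjusted p = 0.000791 in edgeR). PLEK2, a pleckstrin-family protein, rose by 1.16 ± 0.17 (adjusted p = 0.000602), the membrane linker EZR by 0.82 ± 0.16 (adjusted p = 0.00635) and the tropomyosin TPM4 by 0.70 ± 0.14 (adjusted p = 0.00634). The smallest adjusted p of all genes was that of ATG16L1, an autophagy protein, at 216, 193, 253 and 211 CPM at 48 h and 115, 110, 118 and 96.1 CPM at 24 h (0.99 ± 0.11, adjusted p = 7.54e-05).

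Genes that the liver is known for, also chosen after their values were seen, were among those that fell. FGL1, a secreted hepatokine, was at 3.49, 4.68, 4.61 and 4.43 CPM at 48 h and at 11.1, 13.5, 10.5 and 11.6 CPM at 24 h (-1.44 ± 0.23, adjusted p = 0.00102). Complement C5 fell by 1.37 ± 0.31 (adjusted p = 0.0144). Complement factor CFB fell to 120 to 200 CPM at 48 h, against 163 to 416 CPM at 24 h, with overlap (-1.01 ± 0.23, adjusted p = 0.0136, 0.0574 without 48 h tumor 3). DDC, which makes dopamine and serotonin, fell by 1.29 ± 0.27 (adjusted p = 0.0103). No list of such genes was fixed or tested.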
